A study of Mus musculus with 12 samples.

Results

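The regions described here lie at 42 genes that encode histone modifying enzymes, their partner proteins, chromatin remodelling ATPases, CTCF and cohesin subunits. A region was a merged group of ATAC-seq peak summits, each widened by 250 bp on both sides, in any of 12 lists. Those lying in the body of 1 of the 42 genes, or within 10 kb on either side, were taken, which gave 170 of the 71006 regions in the series. A region was called a promoter when its strongest summit lay within 1 kb of a transcription start, and distal otherwise. There were 47 promoters of the 42 genes themselves, 20 promoters of other genes and 103 distal regions. Of the distal regions, 70 had their summit in an intron, 16 downstream and 13 upstream of the gene, 2 in a UTR and 2 in a coding exon.

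Accessible chromatin had been profiled in hematopoietic stem cells (HSCs), sorted as Lin-/cKit+/Sca1+/Flk2-/CD48-/CD150+ cells from the bone marrow of C57BL/6 mice. The 4 groups were Young WT and Young Mlkl-/- mice at 3 months, and Aged WT and Aged Mlkl-/- mice at 18 months, with 3 libraries each. Mlkl encodes the effector of necroptosis, an inflammatory form of cell death, and Mlkl-/- mice lack it in all tissues. Per the study's methods, each library came from sorted cells pooled over several mice, with more mice per pool in the young groups, and both sexes were used. The labels number the libraries as separate samples, and p-values measure the spread between these pools.

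Histone modifiers write, remove or bind marks on nucleosomes, and remodellers use ATP to slide or evict them. Polycomb repressive complex 2 (PRC2) places methyl groups on histone H3 at repressed genes, and PRC1 binds this mark and ubiquitinates H2A. HSCs depend on several of these factors for self-renewal, and genes such as Asxl1, Ezh2 and Stag2 are known for mutations in human myeloid disorders. Accessibility at such a gene is a property of its own promoter and enhancers and does not measure the amount or activity of the protein.

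The 200 bases around the strongest summit are shown for the 5 distal regions with the largest differences between ages, and up to the last base before the start for the Kdm6a promoter, the highest-ranking of the 42 genes. All are from mouse build mm10 (GRCm38) and read along the strand of the gene. Capitals mark letters of a searched motif on either strand: RUNX (TGTGGT) in Ezh1 and Crebbp, NFY (CCAAT) in Crebbp, CTCF (CCANNAGNG) in Smc3, SP/KLF (GGGCGG) in Jarid2 and Kdm6a, and the E-box (CACGTG) in Kdm6a. The Chd7 window held none of the searched motifs. None of the 6 stretches overlapped an annotated exon.
Ezh1 intron, chr11:101221441-101221640, minus strand: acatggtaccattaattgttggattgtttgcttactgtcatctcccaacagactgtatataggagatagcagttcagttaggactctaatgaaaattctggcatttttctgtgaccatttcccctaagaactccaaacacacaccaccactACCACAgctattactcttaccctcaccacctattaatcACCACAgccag
Smc3 downstream, chr19:53648819-53649018, plus strand: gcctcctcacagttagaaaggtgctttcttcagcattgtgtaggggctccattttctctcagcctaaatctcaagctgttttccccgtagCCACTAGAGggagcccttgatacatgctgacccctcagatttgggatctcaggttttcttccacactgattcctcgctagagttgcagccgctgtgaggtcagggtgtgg
Crebbp intron, chr16:4203661-4203860, minus strand: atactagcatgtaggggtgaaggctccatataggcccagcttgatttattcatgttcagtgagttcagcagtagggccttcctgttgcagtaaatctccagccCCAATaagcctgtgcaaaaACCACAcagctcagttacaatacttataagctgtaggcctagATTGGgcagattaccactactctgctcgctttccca
Chd7 intron, chr4:8837578-8837777, plus strand: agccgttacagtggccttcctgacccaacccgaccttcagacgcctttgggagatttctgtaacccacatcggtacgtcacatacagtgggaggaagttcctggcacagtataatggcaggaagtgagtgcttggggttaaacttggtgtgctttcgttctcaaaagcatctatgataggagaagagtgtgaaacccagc
Jarid2 intron, chr13:44733861-44734060, plus strand: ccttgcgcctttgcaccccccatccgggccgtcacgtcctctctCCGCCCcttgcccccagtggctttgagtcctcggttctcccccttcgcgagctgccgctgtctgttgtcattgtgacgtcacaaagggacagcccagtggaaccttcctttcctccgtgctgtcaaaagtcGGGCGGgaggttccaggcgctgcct
Kdm6a promoter, chrX:18162380-18162574, plus strand: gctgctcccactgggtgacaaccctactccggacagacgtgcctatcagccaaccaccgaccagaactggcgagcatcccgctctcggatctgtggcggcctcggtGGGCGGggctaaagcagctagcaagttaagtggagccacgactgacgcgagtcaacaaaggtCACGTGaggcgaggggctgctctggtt

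The lists held from 35714 to 61495 summits with a score of at least 3, the score being the peak caller's q-value as its -log10. Read counts were not used here, so depth is unknown, and comparisons between libraries used ranks within lists cut to the same 35714 top-scoring summits. Of the HSC marker genes given here, the starts of Kit, Hlf, Meis1 and Tal1 were called in 12 lists, Procr in 9, Gata2 in 8, Mecom in 5 and Slamf1, which encodes CD150, in 0. Starts of the 4 B-cell and 4 granulocyte and monocyte markers were called in 0 lists, those of the 4 T-cell markers in 0 except Lck in 1 list, and those of erythroid Klf1 and Hba-a1 in 0 and that of Epor in 12. A summit at the Mlkl start was present in 6 of 6 lists of either genotype, which does not test the genotype labels. In bulk samples, a different mixture of cells and a different accessibility per cell cannot be told apart. Of 4 Y-linked genes checked, 2 had a summit at the start in Young WT 1, 3 in Young Mlkl-/- 1 and 2 in Young Mlkl-/- 2. The other lists, with all 6 aged lists among them, had 0. The sex makeup of the pools and age could therefore not be fully told apart, and the young genotypes were uneven as well.

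Calls in every library were more frequent at the 42 genes than over the whole catalogue, as they were at other chromatin genes. Of their 170 regions, 75 (44.1%) were called in all 12 lists as deposited, against 28.6% of all regions and 41.1% of the 555 regions at 114 other chromatin genes. Of these 75, 37 were their own promoters, 15 promoters of other genes and 23 distal. Promoters were 47 and 20 of the 170 regions, and 18368 of all 71006. Of their own promoters 37 of 47 (78.7%) were called in all 12 lists, against 59.7% of all promoters. For the promoters of other genes near them this was 15 of 20 (75%). Among distal regions 23 of 103 (22.3%) were called in all 12 lists, against 17.8% of all distal regions, and 18 (17.5%) were called in a single list, against 20.3%. These shares are descriptions, since the genes were chosen with earlier results known.

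As deposited, the 3-month lists called 104.0 ± 6.0 (WT) and 111.3 ± 19.1 (Mlkl-/-) of the 170 regions, and the 18-month lists 119.0 ± 5.6 (WT) and 118.0 ± 12.1 (Mlkl-/-), each as mean ± SD with n = 3. In the same order these means were 61.2%, 65.5%, 70.0% and 69.4% of the 170, against 49.05%, 53.26%, 62.30% and 63.50% of all regions. With the lists cut to equal length the order of the means turned, to 92.7 ± 3.5 and 97.0 ± 5.6 in the young groups and 88.3 ± 5.7 and 91.0 ± 2.6 in the aged groups. Single libraries overlapped between the ages. At that length the shares were 54.5%, 57.1%, 52.0% and 53.5%, against 41.0%, 41.7%, 41.6% and 42.6% of all regions. The library Aged WT 3 stood apart: 31 of its 47 promoters of the 42 genes were called at equal length (66.0%), whereas the other 11 libraries had 35 to 43, although 65.4% of all promoters were called in it, within the 64.8% to 70.3% of the others.

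**Figure D1:**
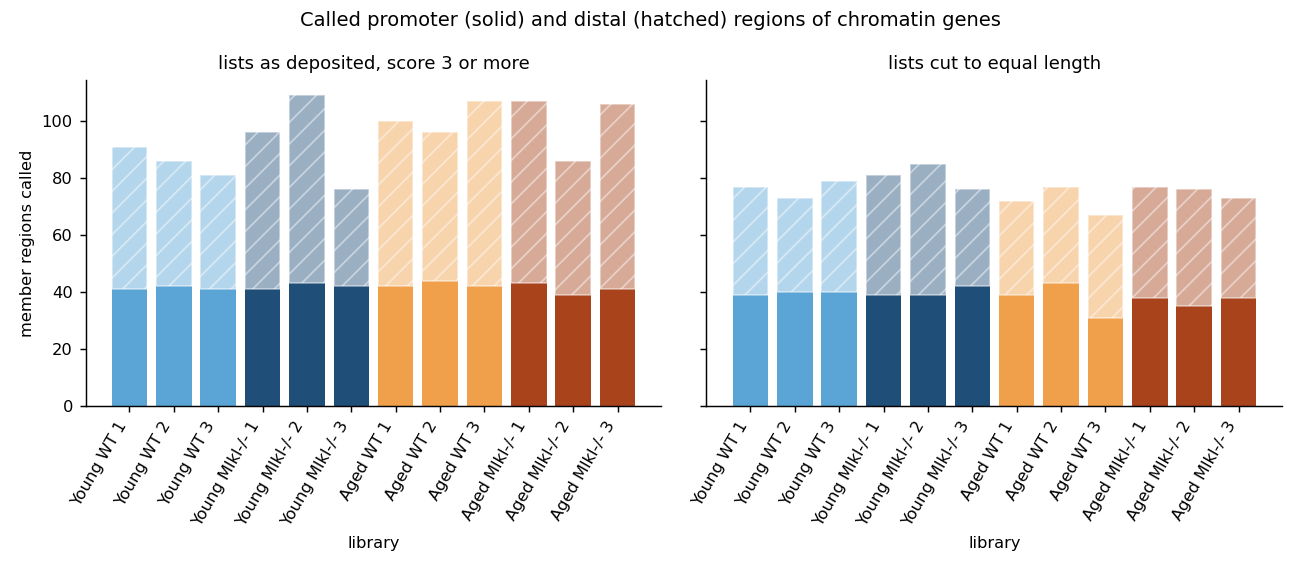
Number of promoters (solid) and distal regions (hatched) of the 42 genes called in each of the 12 libraries, coloured by group, in the lists as deposited (left) and cut to equal length (right). Promoters of other genes are left out. Promoter calls lie between 39 and 44 as deposited and between 35 and 43 at equal length except in Aged WT 3 (31), and distal calls range from 34 to 66 as deposited and from 33 to 46 at equal length.

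Promoters were then compared on the normal score, which is the rank of a region within its list turned into a normal deviate. A score of 0 is the middle of the catalogue, and a region that was not called at equal length has a score of -0.57 to -0.52. Over the 42 genes, 40 had a promoter region and in 35 it was called in all 12 lists as deposited. Where a gene had several promoter regions, the one with the highest mean score was used. The median of the 40 mean scores was 1.10, and the median mean percentile was 85.8. Over all 47 promoters of the 42 genes the median mean score was 0.98, against 0.64 over all promoters of the catalogue. In 12 genes the mean was over 1.5 and in 9 it was under 0.5.

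Among PRC2 genes, the promoters of Eed (1.51 ± 0.23, SD over 12 libraries) and Ezh2 (1.49 ± 0.20) ranked highest. EZH2 is the methyltransferase of PRC2 and EED the subunit that binds the finished mark. Suz12, a core subunit, had 1.26 ± 0.21 and Jarid2, an accessory subunit, 0.99 ± 0.08, the smallest spread of the 40 promoters. The promoter of Ezh1, which encodes the other methyltransferase, had 0.22 ± 0.49 and was called in 10 of 12 lists as deposited. The Eed summit was nearer to the start of a neighbouring transcript, E230029C05Rik, than to that of Eed.

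PRC1 genes ranged more widely. Rnf2, which encodes a ubiquitin ligase of PRC1, had 1.44 ± 0.17 and its paralog Ring1 0.45 ± 0.51. Of the chromodomain subunits that read the PRC2 mark, Cbx8 had 1.15 ± 0.15, Cbx7 0.33 ± 0.30 and Cbx2 -0.12 ± 0.55. The Cbx2 promoter was called in 11 lists as deposited but in 5 at equal length. Cbx2 and Cbx8 are neighbours, and 1 distal region and the Cbx8 promoter lie within 10 kb of both.

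The H2A deubiquitinase genes were among the most accessible. Asxl1 had 1.83 ± 0.19 and Asxl2 1.82 ± 0.23, which differed by less than their spread, and Bap1, the catalytic subunit they bind, had 1.26 ± 0.44. In each of the 3 the summit was nearer to the start of another gene (2500004C02Rik, 1110002L01Rik and Phf7) than to that of the named gene. Among H3K9 methyltransferases, Suv39h1 (1.73 ± 0.23) and Suv39h2 (1.71 ± 0.21) also differed by less than their spread, while Setdb1 had 0.37 ± 0.52.

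H3K4 methyltransferase promoters lay lower. Kmt2c had 1.20 ± 0.22, Kmt2a, the gene rearranged in human leukemia, 0.38 ± 0.61 and Kmt2d 0.32 ± 0.57. The strongest Kmt2c and Kmt2d summits lay 934 and 920 bp upstream and were nearer to the starts of 4831440E17Rik and Gm49437. Of the genes for H3K36 and H3K79 methylation, Setd2 had 1.12 ± 0.21, Dot1l 1.08 ± 0.27 and Nsd1 0.59 ± 0.45.

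The demethylase genes held both the strongest promoter and the pair without any. Kdm6a, the X-linked gene of an H3K27 demethylase, had 2.11 ± 0.31. Its score was 1.46, 2.10 and 2.34 in WT and 2.08, 2.46 and 1.79 in Mlkl-/- libraries at 3 months, and 1.96, 1.96 and 2.25 in WT and 2.47, 2.5 and 1.98 in Mlkl-/- libraries at 18 months. The 4 groups overlapped. Its paralog Kdm6b had no summit of score 3 or more within 1 kb of its annotated start in any list, and the nearest lay 1864 bp away. Kdm5b, an H3K4 demethylase gene, likewise had none, with the nearest 2996 bp away. The 200 bases around the Kdm6b start held 53.5% G or C and 1 CpG, whereas those around the starts of Kdm5b held 66.0% and 66.5% with 22 and 20 CpGs, so both kinds of start were without a call. Kdm1a (0.98 ± 0.25) and Kdm2b (0.79 ± 0.30), which encodes a protein that binds CpG islands, lay between. The Kdm2b value is that of its stronger promoter region, at a start inside the gene. The promoter region at the upstream end of Kdm2b had 0.06 ± 0.56 and was called in 7 lists at equal length.

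Of the acetyltransferase and deacetylase genes, Hdac2 ranked highest at 1.93 ± 0.53. It was also among the most variable of the strong promoters, with 2.19, 2.53 and 1.79 in WT and 1.90, 1.08 and 2.92 in Mlkl-/- libraries at 3 months, and 2.08, 2.38 and 1.28 in WT and 1.68, 1.52 and 1.76 in Mlkl-/- libraries at 18 months. The spread within Young Mlkl-/- alone exceeded the differences between group means. Crebbp (1.66 ± 0.33) ranked above Ep300 (0.74 ± 0.18), its paralog and partner acetyltransferase. Hdac1 had 1.53 ± 0.14 and Hdac3, which shares its promoter region with Rell2, 0.73 ± 0.23.

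Remodellers spanned the range. Smarca5, the ISWI ATPase, had 1.69 ± 0.29 and Smarca4, the ATPase of the SWI/SNF complexes, 1.30 ± 0.22. Arid1a (0.78 ± 0.48) and Arid2 (0.64 ± 0.16), which encode subunits specific to different SWI/SNF complexes, lay lower. Chd7 had -0.04 ± 0.56, called in 10 lists as deposited, and Chd4, the ATPase of the NuRD complex, had the lowest value, -0.36 ± 0.44, from a summit 836 bp inside the gene, beside the start of Mir7045, called in 5 lists. A summit within 1 kb of a Chd4 start was present in 6 lists and its highest score was 9.22. In contrast, the promoters of the cohesin genes Rad21 (1.89 ± 0.11) and Smc3 (1.68 ± 0.15) were high with little spread, and Ctcf (0.99 ± 0.28) and X-linked Stag2 (0.97 ± 0.20) were intermediate.

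**Figure D2:**
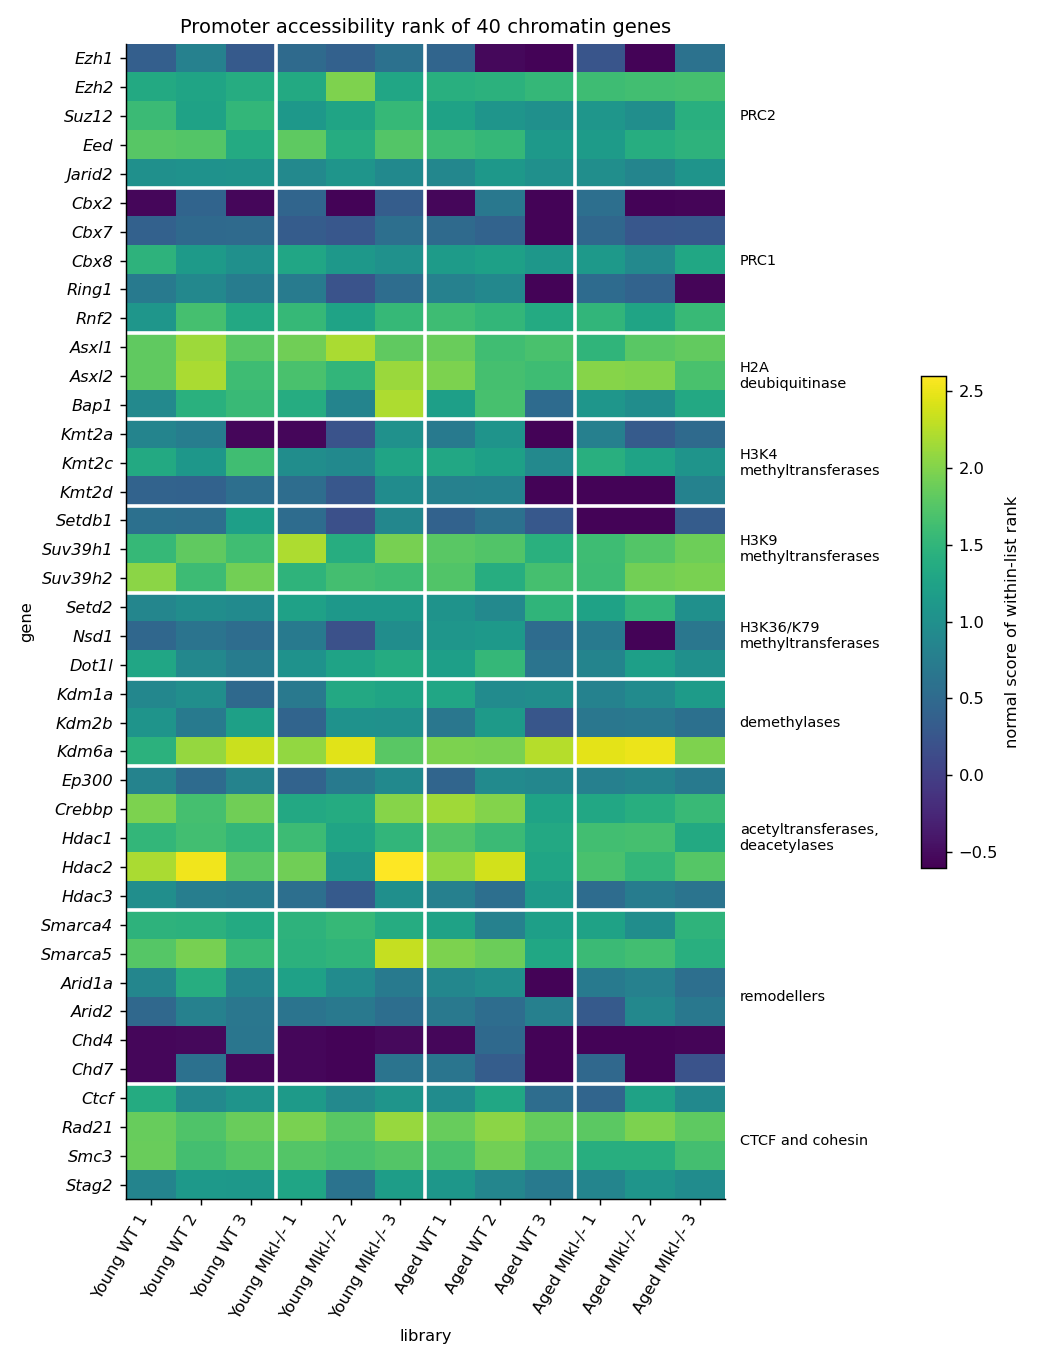
Normal score of the strongest promoter region of 40 genes (rows, grouped by role) in the 12 libraries (columns, white lines between groups), on a colour scale from -0.6 (not called) to 2.6. Kdm6a, Hdac2, Rad21, Asxl1 and Asxl2 are bright in nearly every column, and Chd4, Cbx2 and Chd7 are dark in most.

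Distal regions were unevenly spread. The number for a gene ran from 0, in 10 genes, to 9 in Chd7, with a median of 2.0, and it followed gene length only in part (Spearman's rho = 0.545 over 42 genes, which share the libraries). Distal regions called in all 12 lists lay at 14 genes. The strongest, at 2.47 ± 0.35, lay 9828 bp past the end of Hdac3, and the nearest start was that of AC129315.1 at 6198 bp. The next were introns of Jarid2 (1.80 ± 0.23, 138694 bp from the start), Arid2 (1.76 ± 0.28) and Arid1a (1.73 ± 0.29), and a region 3526 bp upstream of Dot1l (1.62 ± 0.25). These ranked with the stronger promoters. Kdm6b and Kdm5b, without a called start, had upstream regions in all 12 lists, 5341 bp (1.11 ± 0.15) and 3079 bp (0.77 ± 0.17) from their starts.

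The letters under the summits differed from the catalogue mainly in one motif. In 200-bp windows, GGGCGG was found in 36 of 47 promoters of the 42 genes (76.6%) and in 47.9% of all promoters, beside a median content of G and C of 69.5% and 63.0%. CCANNAGNG was found in 3 promoters (6.38% against 14.4%) and in 26 distal regions (25.2% against 20.2%). Of the others, CCAAT was in 29.8% against 26.0% of promoters and 24.3% against 20.6% of distal regions, and TGTGGT in 6.38% against 10.9% and 23.3% against 27.2%. The AP-1 letters TGANTCA were in 0 promoters (4.76% of all) and 10 distal regions (9.71% against 12.1%), and the GATA letters AGATAA in 0 promoters (3.77% of all) and 7 distal regions (6.80% against 11.2%). The ETS letters CCGGAAG were in 6.38% against 10.7% of promoters, NRF1 GCGCATGCG in 2.13% against 1.74%, YY1 AAGATGG in 4.26% against 3.59% and CACGTG in 4.26% against 6.90%. In distal regions these 4 were in 0.971%, 0%, 1.94% and 4.85%, against 2.30%, 0.158%, 3.19% and 3.96% of all distal regions. Both strands were searched, motifs could overlap, and a match is a description of the letters.

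**Figure D3:**
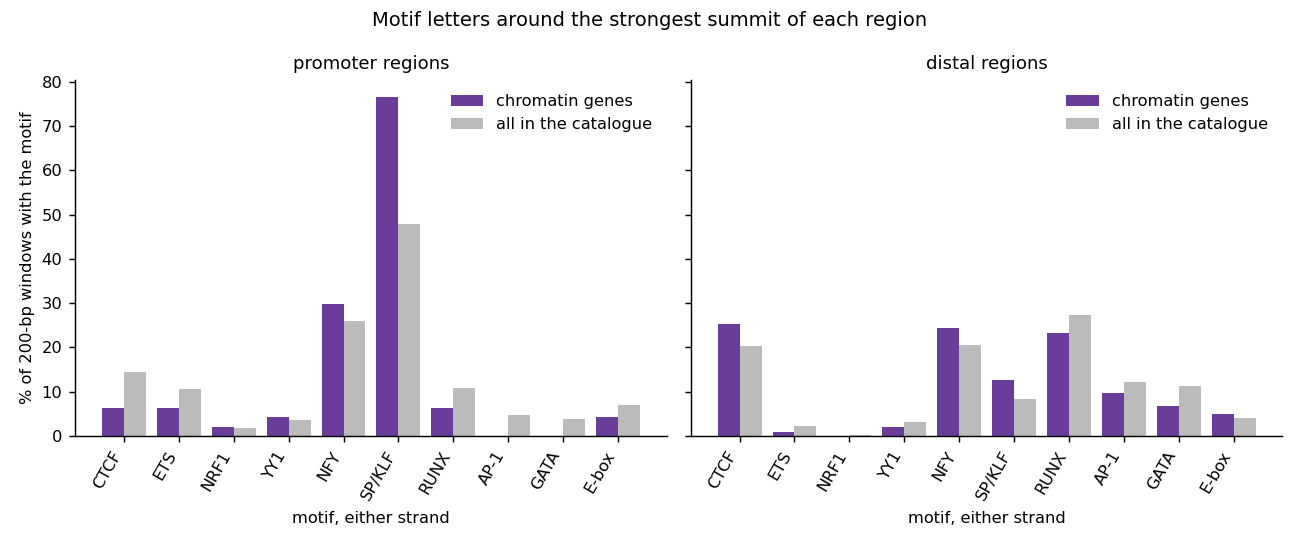
Percentage of 200-bp windows around the strongest summit that hold each of 10 motifs on either strand, for regions of the 42 genes (purple) and all regions of the catalogue (grey), promoters left and distal regions right. SP/KLF letters are in 76.6% of promoters of the 42 genes and 47.9% of all promoters.

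Whether accessibility at these genes differs with age was then tested, over both genotypes and within each. The test covered every region of the series called at equal length in at least 3 lists, 37886 in all and 108 at the 42 genes (41 of their promoters, 18 promoters of other genes and 49 distal regions). It was limma's moderated test, with an adjusted p under 0.01 taken as the threshold. An intron region of Ezh1 rose and a region downstream of Smc3 fell with age. These were 2 of 108 regions, against 2.72% of all tested regions. The 1 that rose stands against 1.72% that rose in the series, and the 1 that fell against 1.0% that fell. The share at the 42 genes was therefore near the background. Both were distal, and no promoter passed: 0 of 41 promoters had an adjusted p under 0.01, against 0.710% of all tested promoters, 3 had an unadjusted limma p under 0.05 (7.32%, against 12.5%), and the lowest adjusted p among the 41 was 0.137.

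The Ezh1 region (chr11:101221257-101221893) lies in an intron, 4885 bp from the start. Its normal score was 0.47, 0.26 and -0.54 in WT and -0.55, -0.57 and -0.52 in Mlkl-/- libraries at 3 months, and 1.35, 1.25 and 0.61 in WT and 1.06, 1.12 and 1.16 in Mlkl-/- libraries at 18 months. Every aged library was above every young one, and the 3 Young Mlkl-/- libraries had no call at equal length. The difference between ages was 1.34 ± 0.22 (SE, limma adjusted p = 0.00107). As deposited, its summit score was 7.95, 5.65 and 0 in WT and 4.89, 4.82 and 0 in Mlkl-/- libraries at 3 months, and 29.25, 23.97 and 12.25 in WT and 21.84, 18.65 and 28.52 in Mlkl-/- libraries at 18 months, where 0 means no summit of score 3 or more. Within genotypes the differences were 1.01 ± 0.31 in WT (limma adjusted p = 0.0932) and 1.66 ± 0.31 in Mlkl-/- mice (adjusted p = 0.0151), and these differences were not shown to differ (interaction 0.65 ± 0.43, adjusted p = 0.965). The Ezh1 promoter, 109 bp from the start, had -0.56 ± 0.26 for the same contrast (limma adjusted p = 0.215), and the other tested regions of Ezh1, 14317 bp inside the gene and 5834 bp upstream, had -0.31 ± 0.29 and -0.08 ± 0.16. The window shown above for the Ezh1 intron held the RUNX letters at 2 places, which 27.2% of all distal windows held at least once.

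The Smc3 region (chr19:53648648-53649321) lies 3086 bp past the end of the gene and 48521 bp from its start, and the nearest annotated start is that of Rbm20, 28387 bp away. SMC3 is a subunit of the cohesin ring. Its normal score was 0.41, 0.68 and 0.86 in Young WT, 0.69, 0.79 and 0.63 in Young Mlkl-/-, and between -0.57 and -0.53 in all 6 aged libraries, where it was not called at equal length. The difference was -1.23 ± 0.21 (SE, limma adjusted p = 0.00149). The region entered the test through the young lists alone, which limits its p-values. As deposited, the summit was still present in 4 of 6 aged lists: its score was 7.46, 10.58 and 11.58 in WT and 11.74, 16.04 and 7.24 in Mlkl-/- libraries at 3 months, and 4.73, 5.84 and 5.26 in WT and 0, 0 and 5.13 in Mlkl-/- libraries at 18 months. All aged scores were below all young scores. Within WT it was -1.20 ± 0.29 (limma adjusted p = 0.0436) and within Mlkl-/- mice -1.27 ± 0.29 (adjusted p = 0.0400), with an interaction of -0.07 ± 0.42 (adjusted p = 0.994). The CTCF letters began at base 91 of the 200 shown above, beside the summit. The Smc3 promoter had -0.11 ± 0.10 (adjusted p = 0.583).

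List length overlapped between the ages, with 35714 to 56368 summits in young and 47032 to 61495 in aged lists. Both calls were lost when the logarithm of list length entered the fit. The Ezh1 difference was then 1.25 (limma adjusted p = 0.0343) and that of Smc3 -1.21 (adjusted p = 0.0354), and the calls over all regions numbered 78 in place of 1029. The call for Smc3 was also lost in the 9 libraries whose file names carry a shared tag (-1.20, adjusted p = 0.0146) and with Y-gene summits as a covariate (-1.30, adjusted p = 0.0112). The labels do not explain the tag. Young Mlkl-/- 2, Aged WT 3 and Aged Mlkl-/- 1 lack it, so it was uneven over the ages. Without Aged WT 3, both regions passed, as 2 of 107 tested regions.

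At an adjusted p under 0.05, 5 of the 108 regions passed, against 7.75% of all tested regions. The other 3 were introns of Chd7, Crebbp and Jarid2. The Crebbp region, 9652 bp from the start, had normal scores of -0.54, -0.53 and -0.54 in WT and 0.35, 0.28 and -0.52 in Mlkl-/- libraries at 3 months, and 0.55, 0.36 and 0.78 in WT and 1.14, 0.55 and 0.38 in Mlkl-/- libraries at 18 months. All 6 aged libraries were above all 6 young ones, with a difference of 0.88 ± 0.24 (SE, limma adjusted p = 0.0276). In WT no list at 3 months and all 3 at 18 months held it, as deposited as well as at equal length. As deposited the ages overlapped, since a Young Mlkl-/- list had a score of 8.85 and an Aged WT list 7.70. CREBBP is an acetyltransferase of histones at enhancers.

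The Chd7 region, 86240 bp from the start, was called in all 12 lists as deposited. Its normal score was 0.70, -0.53 and 0.60 in WT and 0.72, 0.96 and 0.71 in Mlkl-/- libraries at 3 months, and 1.05, 0.94 and 1.87 in WT and 1.41, 1.32 and 1.34 in Mlkl-/- libraries at 18 months. The ages overlapped slightly, since 1 young library (0.96) was above 1 aged library (0.94), and the difference was 0.80 ± 0.20 (limma adjusted p = 0.0220). Another intron region of Chd7, 59782 bp from the start and called in all 12 lists, had a difference of 0.29 ± 0.11 (adjusted p = 0.116), while the Chd7 promoter had 0.26 ± 0.31 (adjusted p = 0.697).

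The Jarid2 region, 2690 bp from the start, was also called in all 12 lists as deposited, with scores from 5.68 to 10.86 in young and from 4.03 to 6.81 in aged lists. The ranges of deposited scores overlapped. At equal length its normal score was 0.51, 0.28 and 0.50 in WT and 0.39, 0.44 and 0.48 in Mlkl-/- libraries at 3 months, and -0.54, 0.26 and -0.57 in WT and -0.57, -0.56 and -0.56 in Mlkl-/- libraries at 18 months, a difference of -0.86 ± 0.22 (limma adjusted p = 0.0241). All aged ranks were lower, and 5 of the 6 aged lists no longer held the region once shortened. With lists of unequal length the difference was -0.46 (adjusted p = 0.167). The Jarid2 window held 14 CpGs, against 0 in Ezh1, 1 in Crebbp, 3 in Smc3 and 6 in Chd7.

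**Figure D4:**
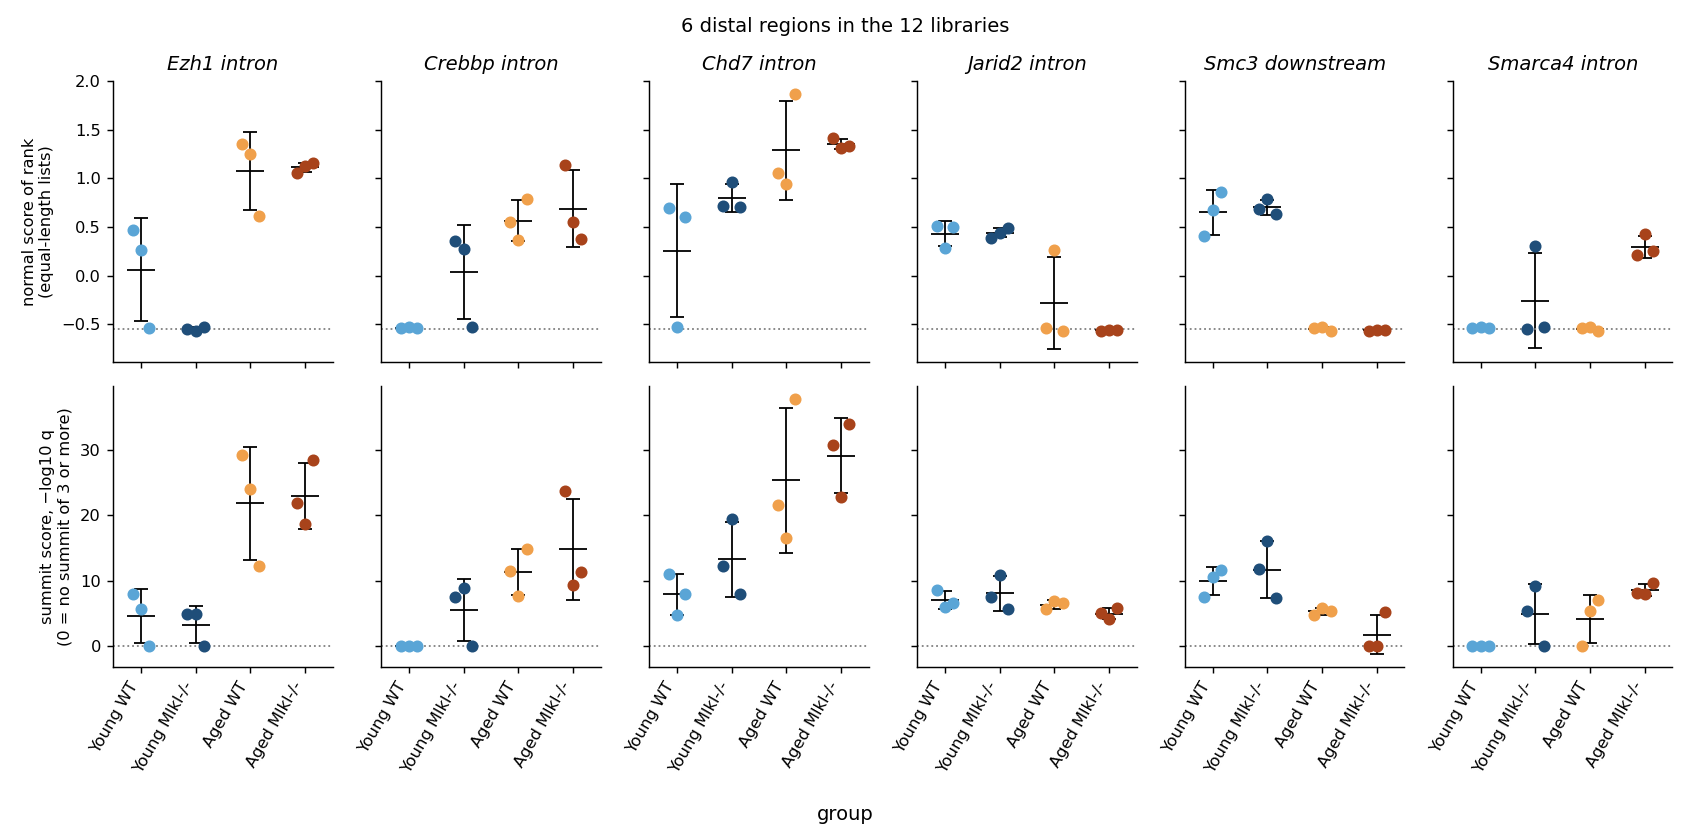
Normal score at equal list length (top) and deposited summit score (bottom) of 6 distal regions in the 12 libraries, by group. Points are libraries, horizontal bars group means, error bars SD (n = 3), and the dotted line marks a region without a call. Ezh1 is higher and Smc3 lower in all 6 aged than in all 6 young libraries on both scales, Crebbp is higher in all 6 at equal length, and Smarca4 is called at equal length in all 3 Aged Mlkl-/- libraries.

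In 4 of the 108 regions the values of the 6 aged and 6 young lists did not overlap (Ezh1, Smc3, Crebbp and Jarid2), against 3.88% of all tested regions. Only the Smc3 region was called in all lists of 1 age and none of the other at equal length, 1 of 136 regions called at that length, against 0.754% of all such regions. Within WT this was so for 2 regions (Crebbp and Smc3), against 3.08%, and within Mlkl-/- for 3 (Ezh1, Jarid2 and Smc3), against 2.98%. The contrast of ages within WT called 0 of 108 regions (0.201% of all) and within Mlkl-/- also 0 (0.150% of all), with 8 and 6 regions at an unadjusted limma p under 0.05 (7.41% and 5.56%, against 14.6% and 14.4% of all tested regions).

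Below these, the next largest negative differences were at a Kmt2c intron (-0.62 ± 0.25, limma adjusted p = 0.145) and the Setdb1 promoter (-0.58 ± 0.23, adjusted p = 0.137). The next largest positive ones were introns of Kdm6a (0.50 ± 0.26, adjusted p = 0.251) and Kmt2d (0.49 ± 0.29, adjusted p = 0.341). None passed either threshold. The Kdm6a intron, with a call as deposited in 3 of 6 lists at 3 months and 6 of 6 at 18 months, lies on the X chromosome. The X-linked promoters had age differences of 0.15 ± 0.16 (Kdm6a), -0.06 ± 0.13 (Suv39h1) and -0.09 ± 0.14 (Stag2), all smaller than their standard error.

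The differences of the 108 regions were mostly small, and over both genotypes more of them were negative than positive. The median was -0.091 over the 41 promoters of the 42 genes, against -0.037 over all tested promoters, and -0.111 over the 49 distal regions, against 0.028 over all tested distal regions. Within genotypes the distal regions did not lean alike: the median was -0.075 in WT, with 34.7% positive (all distal 0.006, 50.6%), and 0.025 in Mlkl-/- mice, with 51.0% positive (all distal 0.022, 52.0%), and this difference was not tested. Of the 108, 35 (32.4%) had a positive difference, against 49.0% of all tested regions. The share was 37.3% in the 330 tested regions at the 114 other chromatin genes. It was 42.9% of all tested promoters and 52.6% of all tested distal regions. By role, 2 of 11 regions of PRC2 genes, 3 of 13 of PRC1, 0 of 5 of the H2A deubiquitinase, 4 of 10 of H3K4, 0 of 4 of H3K9, and 4 of 12 of H3K36 and H3K79 methyltransferases were positive. The same held for 5 of 14 regions of demethylases, 6 of 12 of acetyltransferases and deacetylases, 8 of 19 of remodellers and 3 of 8 of CTCF and cohesin genes. Without Aged WT 3 the promoter median was -0.022, and with list length as a covariate it was 0.027, so its direction depended on these. With Y-gene summits as a covariate the distal median was -0.001.

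Regions of 114 other chromatin genes were set beside these. Of their 330 tested regions, 1 rose and 1 fell, and the median difference was -0.084. The region that rose lay at Ehmt1, which encodes an H3K9 methyltransferase (1.23 ± 0.20, limma adjusted p = 0.00127). Its summit was absent from all 6 lists at 3 months and present in all 6 at 18 months, as deposited and at equal length. Over the series this was so for 597 of 71006 regions as deposited and 263 of 52263 at equal length. The Ehmt1 region thus entered the test through the aged lists alone, which limits its p-value. The region that fell lay at Kat2b, an acetyltransferase gene (-0.68 ± 0.11, adjusted p = 0.00112), and was called in all 12 lists.

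Whether loss of Mlkl altered these regions was tested in the same fit. Over both ages 0 of the 108 regions passed (0% of all tested regions), and likewise 0 at 3 months, 0 at 18 months and 0 for the interaction of age and genotype (0% of all in each). At an unadjusted limma p under 0.05 there were 2, 2, 5 and 4 of the 108 regions, and 2357, 2034, 1931 and 1817 of all 37886. No region had values of the genotypes that did not overlap (0 of 108, against 0.140% of all), and none was called in all lists of 1 genotype and none of the other (0 of 136, against 0.00383%). The median difference over the 108 regions was -0.003, against 0.001 over all.

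The largest positive difference between genotypes was at a Smarca4 intron, 14558 bp from the start (0.56 ± 0.21, limma unadjusted p = 0.0144, adjusted p = 0.764). Called at equal length only in Mlkl-/- lists, the region entered the test through the genotype where it was high, which limits the p-values given for it. At 18 months it was the only region of the 42 genes called at equal length in all libraries of 1 genotype and none of the other (1 of 136, against 0.802% of all). At 3 months there was none (0 of 136, against 0.752%). Its normal score was 0.21, 0.43 and 0.25 in Aged Mlkl-/- and -0.54, -0.53 and -0.57 in Aged WT libraries. As deposited, however, it was also present in Aged WT 2 and Aged WT 3, with scores of 5.30 and 7.04 beside 8.08, 7.95 and 9.62 in Aged Mlkl-/- libraries. The difference at 18 months was 0.84 ± 0.29 (limma adjusted p = 0.769). In the lists as deposited, 1 of the 170 regions was called in all libraries of 1 genotype and none of the other at 18 months, against 0.687% of all, and it went the other way. This was the Chd4 region 836 bp from the start, with scores of 4.58, 9.22 and 6.26 in Aged WT and 0 in all 3 Aged Mlkl-/- libraries.

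The other differences between genotypes were smaller. An intron region of Cbx7, 13567 bp from the nearest start, had 0.44 ± 0.23 (limma adjusted p = 0.764), the distal region between Cbx2 and Cbx8 0.38 ± 0.28 (adjusted p = 0.850), and a Chd7 intron region 54660 bp from the start 0.37 ± 0.31 (adjusted p = 0.870). The Cbx7 region, too, was called at equal length only in Mlkl-/- lists and entered the test through them. On the negative side, an Nsd1 intron had -0.56 ± 0.28 (adjusted p = 0.764), the Setdb1 promoter -0.47 ± 0.23 (adjusted p = 0.764), a Jarid2 intron called in all 12 lists -0.37 ± 0.14 (adjusted p = 0.764), a region downstream of Hdac3 -0.35 ± 0.27 (adjusted p = 0.861) and a Kmt2c intron -0.33 ± 0.25 (adjusted p = 0.861). The Setdb1 promoter was called as deposited in all 12 lists, with normal scores of 0.58, 0.56 and 1.21 in WT and 0.53, 0.19 and 0.89 in Mlkl-/- libraries at 3 months, and 0.41, 0.60 and 0.28 in WT and -0.57, -0.56 and 0.33 in Mlkl-/- libraries at 18 months. The genotypes overlapped at both ages. The 5 regions with the largest age differences had genotype differences of -0.28 (Ezh1), 0.02 (Smc3), 0.35 (Crebbp), 0.30 (Chd7) and -0.13 (Jarid2), with standard errors of 0.22, 0.21, 0.24, 0.20 and 0.22.

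**Figure D5:**
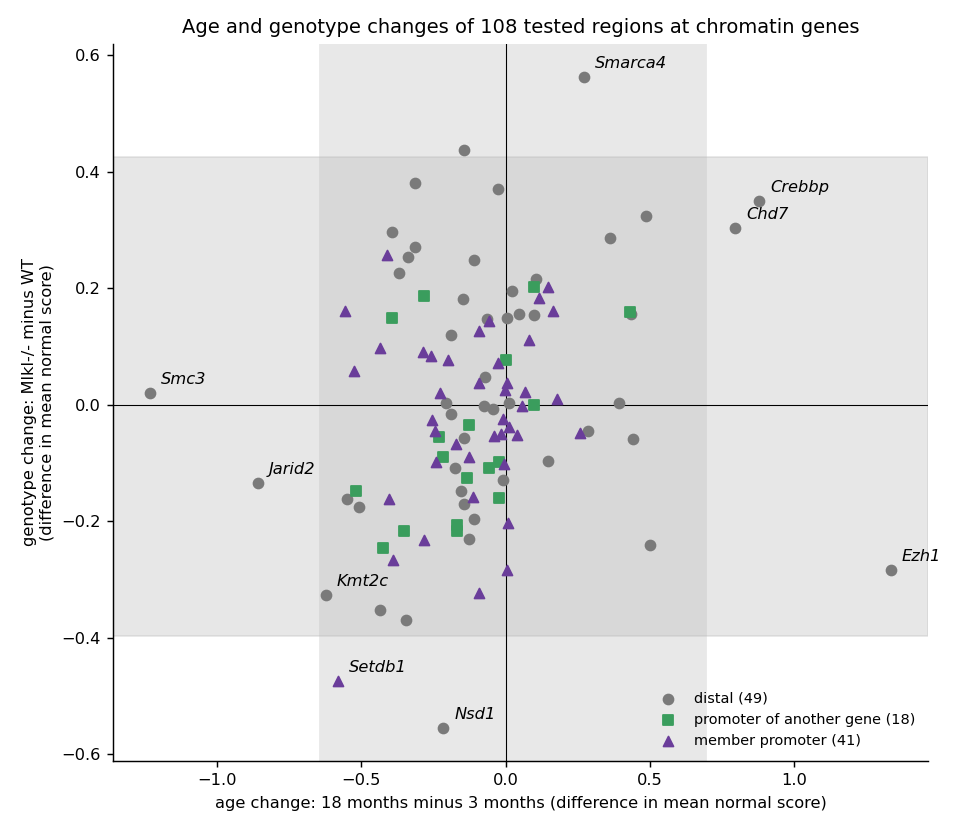
Difference between ages (x axis, 18 minus 3 months) and between genotypes (y axis, Mlkl-/- minus WT) in mean normal score of the 108 tested regions, by kind of region. Grey bands span the 5th to 95th percentile of all 37886 tested regions, from -0.64 to 0.69 for age and from -0.40 to 0.42 for genotype; Ezh1, Crebbp and Chd7 lie to the right of the age band and Smc3 and Jarid2 to its left.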

How the data were processed

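ATAC-seq of sorted HSCs had been done in 12 libraries (4 groups of 3). Per the study's methods, the authors mapped reads to mm10 with Bowtie2 2.5.3 and called peaks with MACS2 2.2.7.1. There is 1 deposited list of summits per library, with a score, the -log10 of the q-value, so a score is tied to how deeply that library was sequenced. The lists hold scores from 2 up, below the cutoff given in the methods, and only scores of at least 3 on the named chromosomes entered.

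Windows of 250 bp each side were merged over all lists (71006 regions: 18368 promoters, 52638 distal, by GENCODE basic starts). Each list was cut to its 35714 top-scoring summits, regions were ranked within lists, regions without a call shared the lowest rank, and ranks became normal scores. Fold changes and count models were not used, as the files hold no read counts, and the study's own tests of read counts (edgeR 3.30.3) were not repeated. Regions called in 3 or more lists were compared with limma 3.58.1 (R 4.3.3, trend, 1 fit over 4 groups, Benjamini-Hochberg over all regions, adjusted p under 0.01). The fit was also run on simulated lists. These held no difference in depth or sex between the ages, so that run does not bear on either. No unmapped sample columns were present.

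Same-numbered libraries did not deviate together (correlations -0.301 to 0.128, median -0.007), and no block was used. Pairs with different numbers had correlations of -0.179 to 0.307 (median 0.004). The highest was between Young Mlkl-/- 2 and Aged WT 3, which both lack the file-name tag. Named regions were those past the threshold, the 5 largest differences each way for age and for genotype, regions called in all libraries of 1 arm only, genes without a promoter in 12 lists, the extremes of each role, and X-linked genes; further promoters and the strongest distal regions were named after their values were seen. The 42 genes, the other lists and the motifs were chosen with earlier results of these data known. Python 3.11.15, numpy 2.4.6, scipy 1.17.1 and pandas 2.3.3 were used. Some marker genes are not reported here.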

Additional observations from a re-analysis of the deposited data

Results flagged for a closer look

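The comparisons used summits with a score of 3 or more. The deposited lists also hold 62 summits of lower score within 10 kb of the 42 genes, which entered no comparison. Kdm6b had 7 of them, Chd4 and Ring1 5 each, and Arid2 and Cbx2 4 each.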

How the results depend on the processing

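The age contrast over both genotypes called 2 of 108 regions, and 4 with lists of unequal length (Chd7 and Crebbp in addition), 5 at an adjusted p under 0.05, 1 in the 9 libraries with the file-name tag, 1 with Y-gene summits as a covariate, 1 within 2 kb of the genes and 0 with list length as a covariate. It called 2 to 3 without 1 library, and 2 with the replicate number as a block, which changed no count of calls at the 42 genes; the libraries share only a number. Age in Mlkl-/- mice called 0 regions, and 1 with lists of unequal length, 1 with the catalogue from equal-length lists, 1 when regions called in at least 1 list were tested, 1 with at least 6 lists and 2 at an adjusted p under 0.05 (0 to 1 without 1 library, the 1 arising without Young WT 3). Age in WT called 0, and 1 at an adjusted p under 0.05 (0 without any 1 library). The genotype and interaction contrasts called 0 under every alternative run. The promoter median of -0.091 turned to 0.0271 with list length as a covariate and lay between -0.1399 and -0.0221 without 1 library (the latter without Aged WT 3). The distal median of -0.111 moved to -0.001 with Y-gene summits as a covariate and lay between -0.13 and -0.0522 without 1 library. The cause was not tested. Of 1776 values of named regions under alternatives, 1769 kept their side of the threshold, 4 lost a call, 3 gained one and 0 reversed while called. Values that missed the threshold were not held to a direction. Some of them changed sign, such as the age difference of the Bap1 promoter (-0.68 to 0.24). Besides those in the report, Jarid2 passed without Aged WT 2 (limma adjusted p = 0.00855), and Crebbp (0.00792) and Chd7 (0.00448) passed with lists of unequal length. Over the alternatives adjusted p ran from 0.000212 to 0.0343 for Ezh1, 0.00133 to 0.0354 for Smc3, 0.00855 to 0.207 for Jarid2, 0.00792 to 0.337 for Crebbp and 0.00448 to 0.204 for Chd7.

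Depth is unknown, 3 pools per group limit every comparison, and ranks measure position within a list rather than accessibility itself. Regions near the end of the shortened lists, such as that of Smarca4, change between called and not called with small differences in summit score. The normal score then changes widely. In Aged WT 3 the Smarca4 summit scored 7.04, under the lowest kept score of 7.18, and its normal score was -0.57. In Aged Mlkl-/- 1 it scored 8.08, above the lowest kept score of 7.67, and its normal score was 0.21.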
